A study of Mus musculus with 6 samples.

Results

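The matrix metalloproteinases (MMPs) and their tissue inhibitors (TIMPs) were examined in mouse inner medullary collecting duct (IMCD) cells, a line of kidney tubule epithelium, that carried wild-type or T173I ILK. The genes chosen were Mmp2, Mmp3, Mmp9, Mmp10, Mmp13, Mmp14, Mmp15, Timp1, Timp2 and Timp3. Each was read from the brightest probe set that the platform annotation assigns to that symbol alone. Of these 10 genes 9 had such a probe set, out of 22180 genes in the table, and Mmp15 is therefore not analysed here. ILK is integrin-linked kinase, an adaptor at focal adhesions, and T173I replaces 1 of its amino acids. Wild-type ILK was delivered to 3 samples and T173I to 3 samples, each by a lentiviral vector that also encodes GFP, and each sample was hybridised to 1 array. All 6 samples had been exposed to EGF (20 ng/ml for 15 minutes) and then incubated for 1 hour, so no sample shows these genes without EGF or without added ILK. The cells were stable lines. The labels do not say whether a group was 1 line or several, and if it was 1, line and variant cannot be told apart.

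MMPs are zinc-dependent endopeptidases that cleave collagens, laminins, fibronectin and many cell-surface proteins outside the cell. Most are secreted as inactive proenzymes, while Mmp14 and Mmp15 encode enzymes anchored in the membrane. TIMPs bind the active site of MMPs and block it, and TIMP2 also takes part in the activation of pro-MMP2 by MMP14 at the cell surface. In the collecting duct, whose precursor branches in the embryo, the balance of these proteins bears on matrix turnover.

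The short outline of the result is that the 3 Timp genes gave signals above background, as judged from other genes, on every array. Of the 6 measured Mmp genes 4 had a mean over the 6 arrays that was not above background. None of the 9 genes differed between wild type and T173I beyond the spread between arrays. Timp1 came nearest, with a mean 1.48-fold higher in T173I.

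Promoter sequence is a feature on which the members differ and which the choice of genes did not use. RefSeq promoter windows on GRCm38.p6, running from 250 bases before to 50 bases after the annotated start, were found for 8 of the 10 genes, all but Mmp2 and Mmp9. The stretches below are the 100 bases immediately before the start, 5′ to 3′ on the strand of the gene. They are shown for the 3 secreted-enzyme genes whose windows hold an AP-1 motif and for the 3 inhibitor genes, whose windows hold none. Capitals mark the AP-1 motif TGANTCA, the TATA box TATAAA, the Sp1 motif GGGCGG and the Ets motif of the PEA3 type AGGAAG, or the reverse complement of any of them. AP-1, a dimer of Fos and Jun proteins, and Ets factors are known as effectors of EGF signalling.
Mmp3, chr9:7445722-7445821, plus strand: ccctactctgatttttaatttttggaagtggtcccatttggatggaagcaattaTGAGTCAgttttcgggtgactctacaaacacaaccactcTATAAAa
Mmp10, chr9:7502242-7502341, plus strand: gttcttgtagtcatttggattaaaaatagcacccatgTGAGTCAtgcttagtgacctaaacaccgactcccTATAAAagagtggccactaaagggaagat
Mmp13, chr9:7272414-7272513, plus strand: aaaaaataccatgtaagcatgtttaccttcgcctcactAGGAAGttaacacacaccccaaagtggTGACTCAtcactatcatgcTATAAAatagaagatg
Timp1, chrX:20870066-20870165, plus strand: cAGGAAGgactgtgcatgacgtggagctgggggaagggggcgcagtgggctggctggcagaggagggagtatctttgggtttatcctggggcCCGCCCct
Timp2, chr11:118355412-118355511, minus strand: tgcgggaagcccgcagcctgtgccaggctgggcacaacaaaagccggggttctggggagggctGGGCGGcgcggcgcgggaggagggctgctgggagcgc
Timp3, chr10:86300312-86300411, plus strand: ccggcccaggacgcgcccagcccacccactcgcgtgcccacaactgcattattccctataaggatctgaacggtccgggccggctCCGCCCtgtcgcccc

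Mmp3, Mmp10 and Mmp13 each carried 1 TGANTCA and 1 TATAAA downstream of it. The AP-1 motif began 46, 63 and 35 bases before the start, and the TATA motif 7, 29 and 16 bases before it. The windows of the 3 Timp genes held neither motif, and each held at least 1 GGGCGG, beginning 8 bases before the start in Timp1, 37 in Timp2 and 15 in Timp3. Mmp14 had 2 GGGCGG motifs, at 19 and 13 bases before its start, and Mmp15 had 1 at 106. Over all 32851 windows in the table, which lists some genes with several starts, TGANTCA was present in 7.81%, TATAAA in 13.6%, GGGCGG in 35.7% and AGGAAG in 35.4%. Windows with TGANTCA and TATAAA together made up 1.54%. AGGAAG was found in 5 of the 8 windows, those of Mmp3, Mmp13, Mmp14, Timp1 and Timp3. Matches on either strand were counted, and no 2 matches overlapped in these windows. A match of letters is not evidence of binding.

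**Figure D1:**
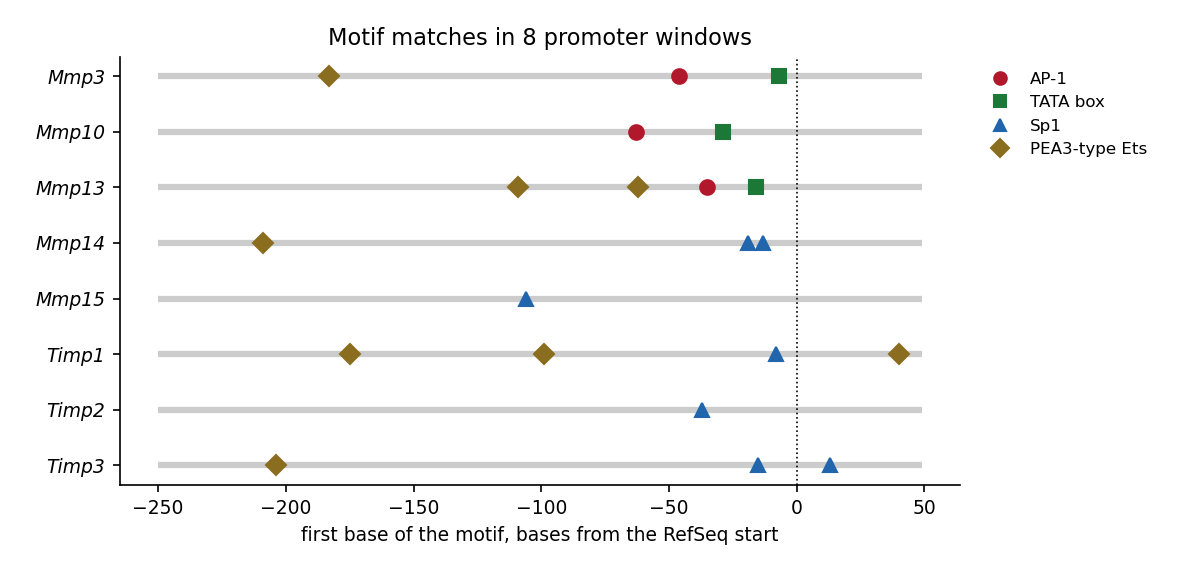
Positions of 4 motifs in the promoter windows of 8 genes, in bases from the RefSeq start (dotted line), each marker at the first base of a match on either strand. AP-1 and TATA matches lie in the Mmp3, Mmp10 and Mmp13 windows, and Sp1 matches in those of Mmp14, Mmp15 and the 3 Timp genes.

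The array values are log2 signals after RMA, the method by which the authors corrected background and made the arrays comparable. A probe set's brightness also depends on its probes, so the signals of different members are not read as relative amounts. The background limits come from the probe sets of other genes, so a place above or below them carries the same uncertainty. Background was judged in 2 ways. The filter of the test left out the 40% of genes with the lowest mean, at a log2 signal of 5.37 or less. Olfactory and vomeronasal receptor genes, which serve in sensory neurons, gave a second yardstick, with a median of 3.29 and a 95th percentile of 5.34 over 1394 genes. Near background means at or below these limits, which gave the same 4 genes. A change in the level per cell and a change in the number of cells that express a gene cannot be told apart in these samples.

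The labelled cell type was checked against marker genes. All 11 epithelial markers were above the background limits, with Cdh1, E-cadherin, at 11.3 in each group. Of 12 collecting duct markers 6 were above them, among them the water channel gene Aqp2, while Aqp3 and Aqp4 were not. Aqp2 was at 6.07 ± 0.051 (SD, n = 3) on wild-type arrays and 6.11 ± 0.14 (SD, n = 3) on T173I arrays. These levels are near the median of 5.90 over all genes. Wild-type replicates 2 and 3 and T173I replicate 2 held the same value for Aqp2. The mean level of the epithelial list was 9.92 to 10.02 on wild-type arrays and 10.24 to 10.29 on T173I arrays, and that of the collecting duct list 5.69 to 5.78 and 5.38 to 5.67. Within them the keratin genes Krt7, Krt8, Krt18 and Krt19 were higher on every T173I array, by 0.41, 0.64, 0.44 and 1.62. In limma's test 4 of the 11 epithelial markers had an unadjusted p under 0.05, beside 10.2% of all genes tested. Gata3, a transcription factor gene, was lower on every T173I array, with a difference of -0.78, and Scnn1g, a sodium channel subunit gene, had a difference of -1.19 with overlap. None of these passed the adjusted threshold, and the part of these lists in the results was not tested. Of 10 fibroblast markers 4 passed the filter, as did 4 of 10 leukocyte and 1 of 10 endothelial markers. Pdgfra, Ptprc, Cdh5 and Pecam1 were among the markers left out by it. The 4 fibroblast markers that passed were Col1a1, Col1a2, Postn and Thy1, and the endothelial marker was Eng. Postn was at 4.65, 6.05 and 6.26 in wild type and 8.05, 5.49 and 4.30 in T173I, highest on T173I replicate 1. The 4 leukocyte markers that were tested had groups without overlap, beside 15.2% of all genes tested. Each also had an unadjusted p under 0.05 in limma's test, beside 10.2%. Their differences were 1.10 for Cd68, -1.37 for Cd14, -0.78 for Csf1r and -0.29 for Tyrobp. The part of these genes in the results was not tested. The mean level of the fibroblast list ran from 4.97 to 5.26 on wild-type arrays and 5.00 to 5.33 on T173I arrays. The leukocyte list ran from 5.65 to 5.76 and 5.38 to 5.62, and the endothelial list from 4.98 to 5.07 and 5.01 to 5.05. The T173I arrays were less alike (Pearson r 0.964 to 0.983 between arrays over 13308 genes) than the wild-type arrays (0.989 to 0.993). T173I replicate 1 lay with the wild-type arrays on the first principal component, at -11.4 against -18.3 to -11.3, while T173I replicates 2 and 3 were at 38.3 and 15.8.

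Among the secreted enzymes, Mmp3, Mmp9, Mmp10 and Mmp13 were near background. Mmp3 encodes stromelysin-1, which degrades proteoglycans and laminin and activates other proenzymes. Its signals were 3.96, 3.96 and 3.72 on wild-type replicates 1 to 3 and 3.86, 4.14 and 3.96 on T173I replicates 1 to 3. The groups overlapped, and T173I replicate 3 held exactly the value of the first 2 wild-type arrays. Mmp10 encodes stromelysin-2, a close relative of Mmp3. It was at 4.93, 5.13 and 5.28 in wild type and 5.23, 5.24 and 4.94 in T173I. Each group had 1 lower array, wild-type replicate 1 and T173I replicate 3, and the means were 5.11 ± 0.18 (SD, n = 3) and 5.14 ± 0.17 (SD, n = 3).

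Mmp13 encodes collagenase-3, which cleaves fibrillar collagens. Its signals were 3.85, 3.94 and 4.55 in wild type and 3.42, 3.91 and 3.998 in T173I. Wild-type replicate 3 was the highest and T173I replicate 1 the lowest, with the other 4 arrays close together between them. The difference of -0.34 had a 95% interval of -0.89 to 0.22 in a fit with no filter. Mmp9 encodes gelatinase B, which cleaves denatured collagen and collagen IV. It was at 4.93, 5.06 and 5.03 in wild type and 5.16, 5.03 and 4.93 in T173I, with T173I replicates 2 and 3 inside the wild-type range. Wild-type replicate 3 and T173I replicate 2 held exactly the same value for Mmp9.

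Mmp3, Mmp10 and Mmp13 belong to a run of neighbouring genes on chromosome 9 in the RefSeq annotation. The run holds 10 protein-coding genes, all of them MMPs: Mmp13, Mmp12, Mmp1b, Mmp3, Mmp1a, Mmp10, Mmp8, Mmp27, Mmp20 and Mmp7. Each was at or below the filter limit, with mean signals from 2.29 to 5.12. The highest value of any of them on any array was 5.28, that of Mmp10 on wild-type replicate 3.

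The means of Mmp2 and Mmp14 over the 6 arrays lay just above the limits. Mmp2 encodes gelatinase A, the enzyme that the MMP14 and TIMP2 proteins help to activate. Its signals were 5.56, 5.45 and 5.56 in wild type and 5.40, 5.59 and 5.49 in T173I, a span of 0.19 over all 6 arrays. The difference was -0.032, with a 95% interval of -0.24 to 0.17, and limma's adjusted p over all genes tested was 0.90. Mmp14 encodes the membrane-anchored MT1-MMP. It was at 5.56, 5.55 and 5.58 in wild type and 5.74, 5.26 and 5.60 in T173I, so T173I replicate 2 was below both limits. The T173I arrays lay on either side of the tight wild-type values, with SDs of 0.24 against 0.019 (n = 3 each). The difference was -0.031, with a 95% interval of -0.34 to 0.28 and a limma adjusted p of 0.94.

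**Figure D2:**
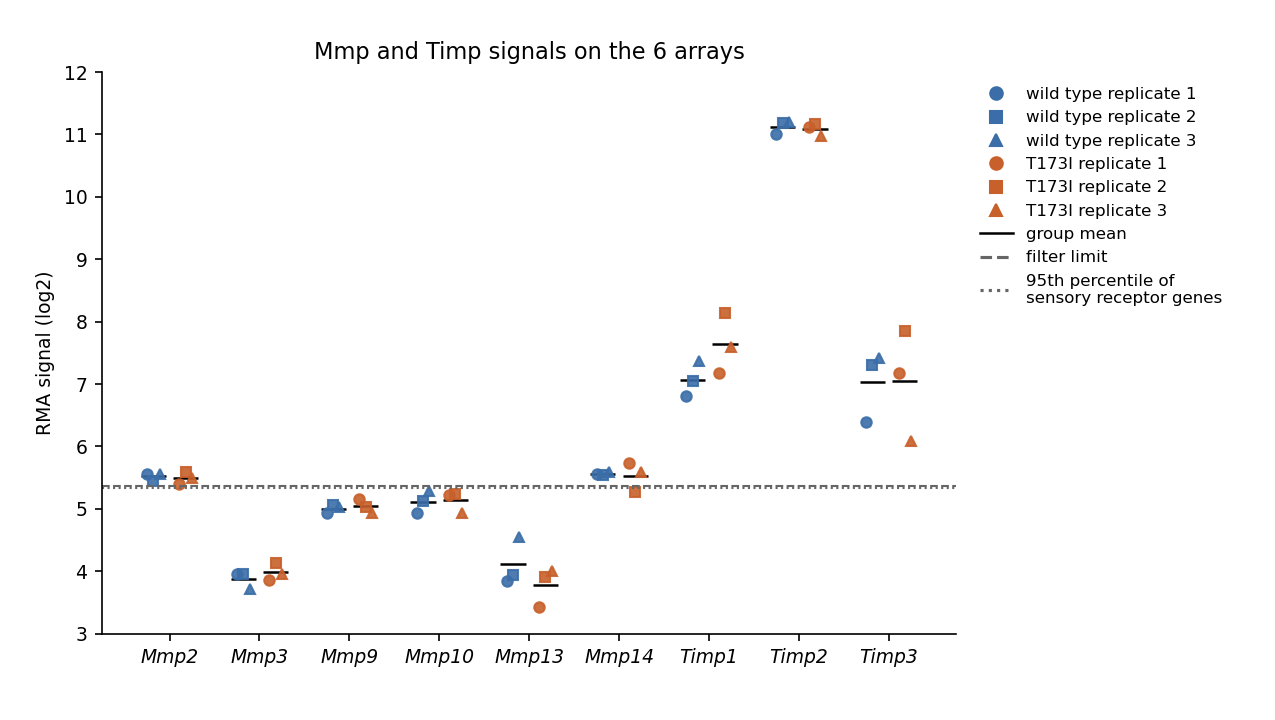
RMA signal (log2) of the 9 measured genes on each of the 6 arrays, with a bar at each group mean, n = 3. The 3 Timp genes lie above the background lines at 5.37 and 5.34, Mmp3, Mmp9, Mmp10 and Mmp13 lie below them, and in every gene the groups overlap.

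Among the inhibitors, Timp2 varied least. Timp2 encodes a broadly made inhibitor of MMPs. Its signals were 10.999, 11.18 and 11.19 in wild type and 11.12, 11.17 and 10.98 in T173I, all within 0.21 of each other. The groups overlapped over nearly their whole range. The difference was -0.031, with a 95% interval of -0.26 to 0.20 and a limma adjusted p of 0.92.

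Timp1 encodes a secreted inhibitor known to be induced by growth factors and in injured kidney. Its signals were 6.80, 7.04 and 7.36 in wild type and 7.18, 8.14 and 7.59 in T173I. T173I replicates 2 and 3 were above every wild-type array, and T173I replicate 1 was inside the wild-type range. The means were 7.07 ± 0.28 (SD, n = 3) and 7.63 ± 0.48 (SD, n = 3), so T173I was higher by 0.56, and the 95% interval ran from -0.057 to 1.19. The limma adjusted p was 0.50 and the unadjusted p 0.069, so Timp1 did not pass. An exact two-sided permutation test of the 3 arrays against 3 gave p = 0.2, where 0.1 is the smallest possible. Leaving out T173I replicate 2 gave a difference of 0.31 (limma adjusted p = 0.72), and leaving out T173I replicate 1 gave 0.79 (limma adjusted p = 0.13).

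Timp3 encodes an inhibitor that stays bound to the extracellular matrix and also blocks ADAM17. Its signals were 6.39, 7.31 and 7.41 in wild type and 7.18, 7.85 and 6.09 in T173I. Each group had 1 low array, wild-type replicate 1 and T173I replicate 3. The means were equal within their spread, at 7.04 ± 0.56 (SD, n = 3) and 7.04 ± 0.89 (SD, n = 3). The pooled SD of Timp3 was larger than that of 98.9% of the genes tested. Its difference of 0.0042 had a 95% interval of -1.14 to 1.15, so a change of 2-fold in either direction is inside the interval. Leaving out T173I replicate 2 moved the difference to -0.40, and leaving out T173I replicate 3 moved it to 0.48.

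**Figure D3:**
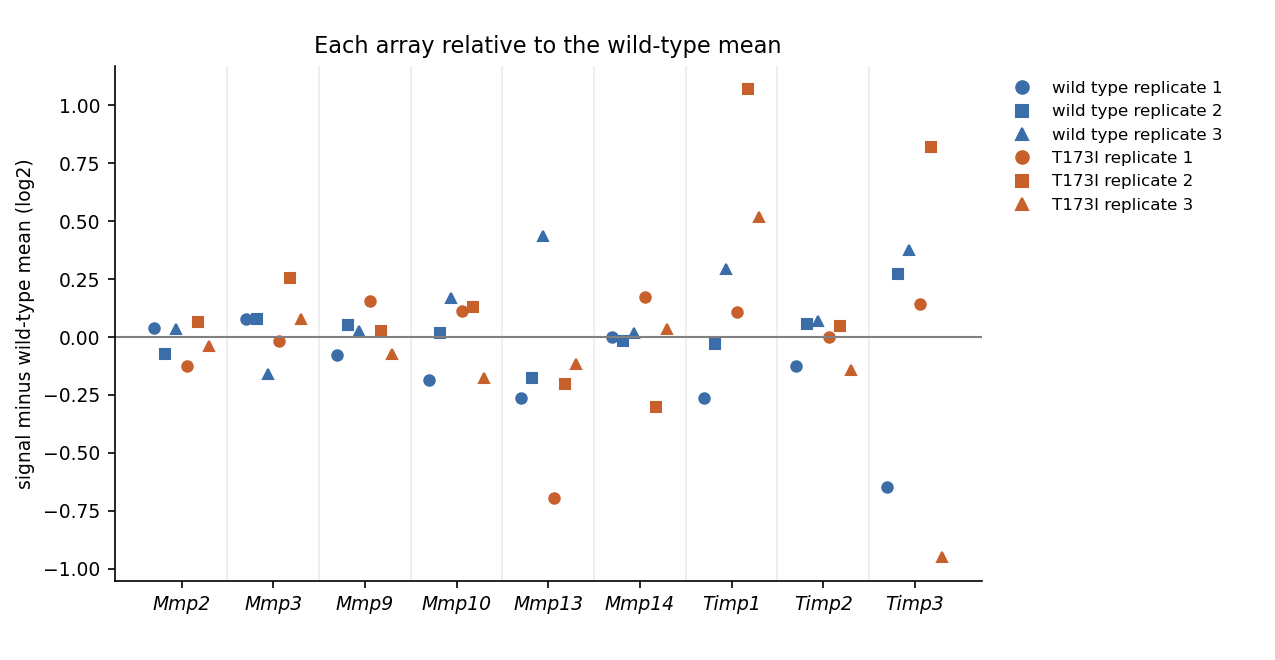
Signal of each array minus the mean of the 3 wild-type arrays (log2) for the 9 measured genes. Timp1 and Timp3 spread most, T173I replicate 2 standing 1.07 and 0.82 above the wild-type mean, while all 6 Mmp2 arrays lie within 0.13 of it.

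Counted together, 5 of the 9 measured genes passed the filter on dim genes and were tested, Mmp2, Mmp14, Timp1, Timp2 and Timp3. In limma's test 0 of the 5 passed the adjusted threshold of 0.05 and 0 had an unadjusted p under 0.05. Over all 13308 genes tested 0% passed the adjusted threshold and 10.2% had an unadjusted p under 0.05, 4.88% higher and 5.31% lower in T173I. The groups overlapped in all 9 measured genes, against 15.2% of the tested genes whose groups did not overlap, 7.23% higher and 7.95% lower in T173I (12.7% in both directions with no filter). With T173I replicate 1 left out, 1.17% of the genes tested passed the adjusted threshold, and none of the 5 did. Of the 5 tested differences 2 were positive and 3 negative, with a median of -0.031, beside -0.011 over all genes tested. Of all 9 differences 5 were positive, with a median of 0.0042, beside 0.0015 over all 22180 genes. The signs of Mmp2, Mmp9, Mmp10, Mmp14, Timp2 and Timp3 depended on the array left out.

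The rest of the family was read from a list of 17 further genes, Timp4 and 16 other MMPs, all with a value. Of these 5 were tested, and 1, Mmp11, had an unadjusted p under 0.05, beside 10.2% of all genes tested. The count was 0 without eBayes and without wild-type replicate 1 or 2 or T173I replicate 2 or 3, and 2 with array weights. With array weights 2856 of all 13308 genes tested had such a p. Mmp11 encodes stromelysin-3, an MMP that is activated by furin inside the cell. It was at 7.86, 7.50 and 7.35 in wild type and 7.36, 6.67 and 7.04 in T173I. T173I replicates 2 and 3 were below every wild-type array, and T173I replicate 1 was just inside their range. T173I was lower, with a difference of -0.55 (95% interval -1.04 to -0.051), but the limma adjusted p of 0.48 missed the threshold. The second, dimmer probe set of Mmp11 had a difference of -0.26.

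Mmp24, Mmp17 and Mmp23 had differences of -0.16, 0.042 and -0.030, the signs of the last 2 depending on the array left out. Without T173I replicate 3 the difference of Mmp24 was -0.059. Of the 26 family genes with a value 16 were left out by the filter, among them 15 of 22 MMPs. In 22 of the 26 the means of the groups differed by less than 0.2. In 1 of the 26, Mmp27, the groups did not overlap, beside 12.7% of all 22180 genes. Mmp27 was at 4.41, 4.56 and 4.51 in wild type and 4.95, 5.05 and 4.56 in T173I. With no filter, Mmp11 and Mmp27 were the 2 family genes with an unadjusted p under 0.05 in limma's test, a share of genes that was 8.4% over all 22180. Mmp27 is singled out here after its values were seen, and all of them were below the background limits.

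**Figure D4:**
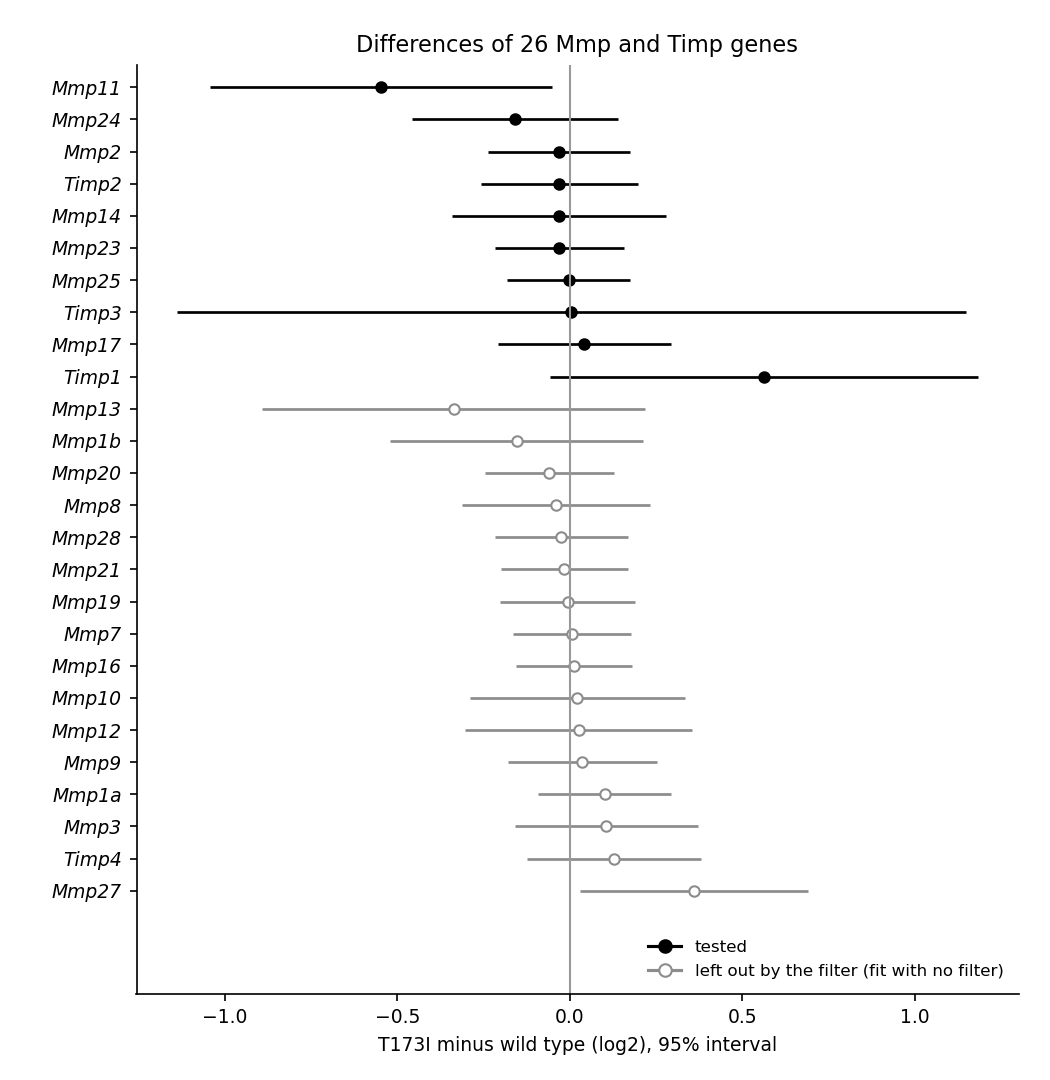
T173I minus wild type (log2) with the 95% interval of the limma fit for 26 Mmp and Timp genes. Of the 10 tested genes (filled) only Mmp11 has an interval that excludes 0, from -1.04 to -0.051, and of the 16 left out by the filter (open, from a fit with no filter) only Mmp27 has.

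A list of 19 genes covered proteins that activate MMPs, inhibit them at the membrane or hold them at the cell surface. Of these 17 had a value and 14 were tested, and 2 were higher at an unadjusted p under 0.05, with 0 past the adjusted threshold and a median difference of -0.0082. Over all genes tested 4.88% were higher by that measure. The 2 were Plaur and Cd44, and the count was 0 without eBayes and without wild-type replicate 1, T173I replicate 2 or T173I replicate 3, and 1 without wild-type replicate 2. Cd44 encodes a hyaluronan receptor that can dock MMP9 and MMP14. It was at 7.53, 7.94 and 8.46 in wild type and 8.33, 10.18 and 9.65 in T173I, a difference of 1.41 with a limma adjusted p of 0.46. T173I replicates 2 and 3 stood above the wild-type arrays and T173I replicate 1 stood among them. Plaur, the receptor that focuses urokinase and so plasmin on the cell surface, also had a difference of 1.41 (limma adjusted p = 0.45). Reck, a membrane-anchored inhibitor of several MMPs, had a wild-type mean of 6.97 ± 0.085 (SD, n = 3) and a T173I mean of 6.71 ± 0.28 (SD, n = 3), a difference of -0.27. Without T173I replicate 2 the difference of Reck was -0.10. Pcsk5, a proprotein convertase, had a difference of -0.27, and -0.11 without the same array.

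The ADAM and ADAMTS genes encode metalloproteinases related to MMPs, many of which shed cell-surface proteins or cleave proteoglycans. Of 17 such genes 12 were tested, and 2 were higher at an unadjusted p under 0.05, with 0 past the adjusted threshold and a median difference of 0.014, beside 4.88% higher over all genes tested. The stricter filter left out both. Adam8 was at 5.53, 5.67 and 5.49 in wild type and 6.21, 6.43 and 6.90 in T173I, so every T173I array was above every wild-type array. The difference was 0.95, with a limma adjusted p of 0.45, and 0.046 without T173I replicate 1. Adam12 was at 5.52, 5.58 and 5.53 in wild type and 5.79, 6.42 and 6.51 in T173I, again with no overlap. Its difference of 0.70 had a limma adjusted p of 0.45, and 0.021 without T173I replicate 1. That array lay with the wild-type arrays on the first principal component, and without it 1.17% of all genes tested passed the adjusted threshold. For Adam8 and Adam12 it was the T173I array nearest wild type, so leaving it out necessarily enlarges the difference. Adam10, a major sheddase, had a difference of -0.31, and Adamts6 one of -0.39. Without T173I replicate 2 the difference of Adam10 was -0.16, and that of Adamts6 was -0.16 without wild-type replicate 1.

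Of 33 matrix proteins that MMPs or related proteases can cleave, 31 had a value and 22 were tested. At an unadjusted p under 0.05 there were 2 higher and 0 lower, with 0 past the adjusted threshold and a median difference of 0.094. Over all genes tested the shares were 4.88% and 5.31%. Leaving out wild-type replicate 2 gave a count of 0, as did the fit with no eBayes. Leaving out wild-type replicate 1 or T173I replicate 2 gave 1, and leaving out T173I replicate 1 gave 7. The count was 5 with array weights and 6 with the replicate block. Among all 13308 genes tested, 22.1% had such a p without T173I replicate 1. With array weights 2856 of the 13308 did, and with the block 1508. Fn1, fibronectin, and Lamb3, a laminin-332 chain, were the 2 higher genes, with differences of 0.97 and 1.26. Lama3, another chain of laminin-332, had a difference of 0.79, and Col4a3, a collagen IV chain, one of -0.53. Lamb3 and Lama3 passed without T173I replicate 1, with limma adjusted p of 0.027 and 0.031 and differences of 1.89 and 1.22. The array left out lay with the wild-type arrays on the first principal component, and 1.17% of all genes tested passed without it. For Lamb3 and Lama3 it was the T173I array nearest wild type, so leaving it out necessarily enlarges the difference. Without wild-type replicate 1 the difference of Col4a3 was -0.27, and without T173I replicate 2 those of Fn1 and Lamb3 were 0.66 and 0.84. The difference of Lama3 was 0.53 without T173I replicate 3.

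The list of AP-1, Ets and other factors known to drive MMP genes had 15 tested members. Of these 2 were higher, Etv4 and Etv5, and 3 lower, Fos, Jun and Egr1, at an unadjusted p under 0.05, with 0 past the adjusted threshold and a median of -0.038. These shares stand beside 4.88% higher and 5.31% lower over all genes tested, and the count was 4 to 6 when 1 array was left out. The genes that encode AP-1 subunits differed in sign, and Fosl1 is not analysed here. Fos and Jun had differences of -0.69 and -0.57, Junb and Jund of -0.038 and -0.11, and Fosb and Fosl2 of 0.45 and 0.38. Mmp3, Mmp10 and Mmp13, whose windows hold TGANTCA, had differences of 0.11, 0.022 and -0.34 at levels near background. With 1 array left out these ran from 0.027 to 0.17, from -0.071 to 0.12 and from -0.47 to -0.12. Etv4 (1.32) and Egr1 (-0.55) passed without T173I replicate 1, with limma adjusted p of 0.015 and 0.044. Without that array, which lay with the wild-type arrays on the first principal component, 1.17% of all genes tested passed. For Etv4 and Egr1 it was the T173I array nearest wild type, so leaving it out necessarily enlarges the difference.

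**Figure D5:**
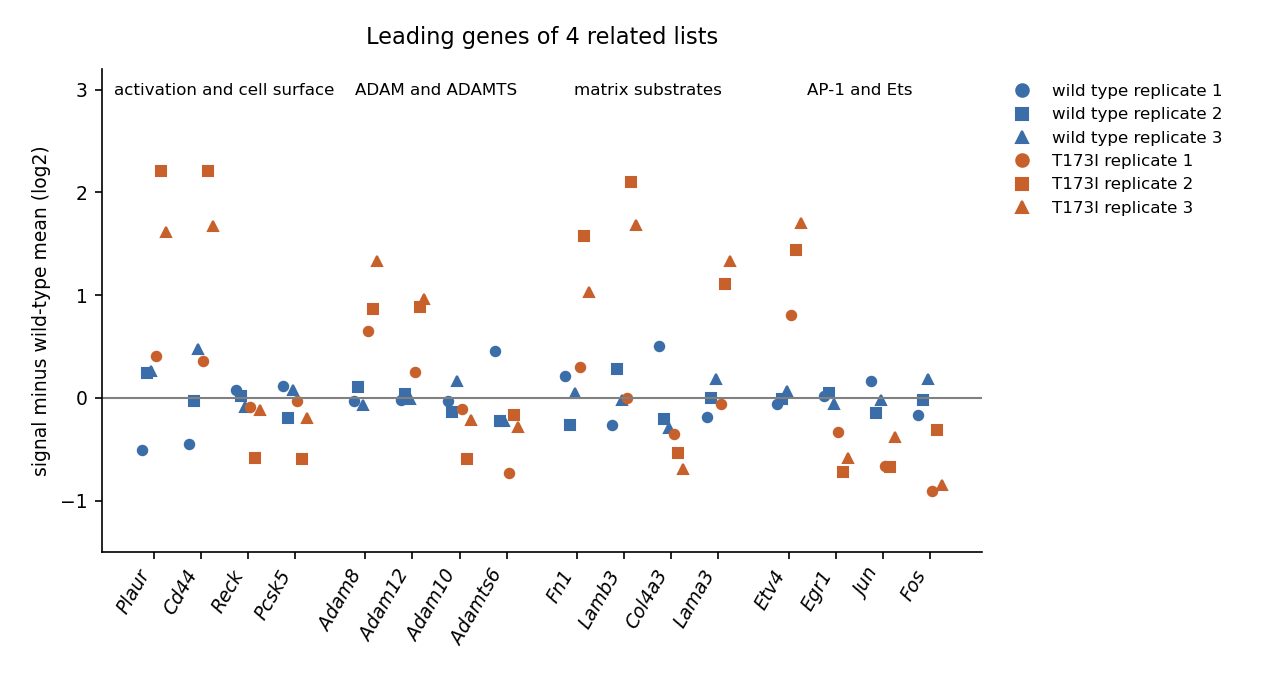
Signal of each array minus the wild-type mean (log2) for the 4 genes with the smallest unadjusted p in each of 4 related lists. Cd44, Lamb3 and Lama3 are above the wild-type arrays on T173I replicates 2 and 3 and among them on T173I replicate 1, while Plaur, Fn1, Adam8, Adam12 and Etv4 are above them on all 3.

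The genes whose pattern was most like that of Timp1, the tested inhibitor with the largest difference, were ranked by Pearson r over the 6 arrays. They were Slc7a1 (0.994), Itga6 (0.994), Gtf2h1 (0.994), Nup205 (0.989) and Tgfbr2 (0.989), each with a Spearman rho of 1. Slc7a1 encodes a transporter of basic amino acids, Itga6 an integrin subunit that binds laminin, and Tgfbr2 a receptor of TGF-beta. Their differences were 0.40, 0.78, 0.21, 0.23 and 0.52. Of 12201 genes compared, 157 had an r over 0.95 with Timp1. For Mmp2, whose absolute difference was the larger of Mmp2 and Mmp14, the 5 were Nom1, Otulin, Mrps28, Antxr2 and Krt10, with r from 0.9504 to 0.981, and 5 genes exceeded 0.95. With 6 arrays and 12201 genes these ranks are a description only.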

How the data were processed

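Values were used as deposited, on the log2 scale, after RMA by the authors (submitters' processing notes). No source used here names the RMA version or the probe set definition. RMA equalises signal distributions, so a shift common to most genes would not be seen. Of 41345 probe sets 23521 have 1 symbol in the platform annotation, and the brightest per gene left 22180 genes. A filter removed the 40% of lowest mean signal, and 13308 genes were fitted with limma 3.58.1 (R 4.3.3; lmFit, eBayes, no covariate, two-sided), with Benjamini-Hochberg adjustment over all of them. The labels call the 3 samples of each group biological replicates, and p-values set the group difference against the spread between those samples. On simulated data with 13308 genes, 77% of 100 genes given a 2-fold change and 95% of 100 given a 4-fold change were called. The simulated arrays were independent, with 1 pooled SD per gene for both groups. In the data the median SD of a gene was 0.098 in wild type and 0.16 in T173I. The simulated shares therefore do not give the chance that a change of that size was called in these data. Same-numbered arrays did not deviate together (correlations of 0.048 to 0.067). From each related list up to 4 genes with the smallest unadjusted p were named, and for likeness the 5 genes with the highest r. The members and lists were chosen with earlier results of these data known. Precision is limited by the number of arrays. Promoters are RefSeq sequences of GRCm38.p6.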

Additional observations from a re-analysis of the deposited data

How the results depend on the processing

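The alternatives were no filter or a stricter one, another eBayes prior or none, 3 other normalizations, the mean of probe sets, array weights, the replicate block and leaving out each array. No tested member passed the adjusted threshold under any of them. The count of genes called ran from 0 to 156 when 1 array was left out, the latter without T173I replicate 1, and was 1 without eBayes. With the replicate block it was 0, and Timp1 had an adjusted p of 0.41. Leaving out 1 array gave -0.081 to 0.014 for Mmp2, -0.13 to 0.10 for Mmp14, -0.093 to 0.025 for Timp2 and -0.40 to 0.48 for Timp3. Near background it gave 0.027 to 0.17 for Mmp3, -0.023 to 0.091 for Mmp9, -0.071 to 0.12 for Mmp10 and -0.47 to -0.12 for Mmp13. It gave -0.048 to 0.12 for Mmp17 and -0.054 to 0.016 for Mmp23. Array weights turned the sign of Mmp14 (0.014), Timp3 (-0.60) and Mmp17 (-0.036). The cause was not tested. Timp1 stayed positive, between 0.31 and 0.79. Its unadjusted p was under 0.05 with array weights, with the block and without T173I replicate 1. In those settings 2856, 1508 and 2946 of all 13308 genes tested had such a p, against 1357 without these changes. The stricter filter left out Mmp2 and Mmp14. The 4 members near background were the same 4 by either limit.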

Other observations

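Timp1 and Timp3 each lie wholly inside a synapsin gene in the RefSeq annotation, Timp1 inside Syn1 and Timp3 inside Syn3. Synapsins are proteins of nerve terminals. The Syn1 means were 5.84 ± 0.056 (SD, n = 3) on wild-type arrays and 5.79 ± 0.0045 (SD, n = 3) on T173I arrays. Syn3 was at 6.20, 6.35 and 6.56 in wild type and 6.36, 5.35 and 4.89 in T173I. T173I replicate 2, which had the highest Timp3 signal, had the second lowest Syn3 signal, and T173I replicate 3 was the lowest array for each of the 2 genes. Cep295nl, which overlaps Timp2, had means of 5.88 ± 0.10 (SD, n = 3) on wild-type arrays and 6.27 ± 0.36 (SD, n = 3) on T173I arrays. Whether probes of these overlapping genes share signal was not tested.

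In 4 of the 9 measured genes, Mmp9, Mmp10, Timp2 and Timp3, wild-type replicate 1 was the lowest wild-type array and T173I replicate 3 the lowest T173I array. That pair of lowest arrays was seen in 10.1% of all genes tested, a set that does not hold Mmp9 and Mmp10, which the filter left out. The pattern was noticed after the values were seen and was not tested.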
